A study of Mus musculus with 5 samples.

Results

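The calcium and potassium channels of T cells were examined through 10 genes, namely Kcna3 and Kcnn4 (potassium channels), Orai1, Orai2, Orai3, Stim1 and Stim2 (store-operated calcium entry) and Trpm4, Trpm7 and Trpv2 (transient receptor potential channels). The members were chosen by gene symbol. All 10 were on the array, out of 18193 genes with a probe set that carries 1 symbol, and they had 18 of the 45101 probe sets. Each gene is represented by its brightest probe set (by the mean of the 5 signals), with its other probe sets given beside it.

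The arrays compared CXCR6+ CD4+ T cells (labelled CXCR6 Hi, n = 2) and CXCR6- CD4+ T cells (labelled CXCR6 Lo, n = 2), both sorted from the colonic lamina propria (LP) of mice with transfer colitis, with CD4+ CD45RBhigh naive T cells (n = 1). In this model, CD4+ CD45RBhigh T cells of BALB/c donors are injected into Rag1-/- hosts, which have no T or B cells of their own but keep their myeloid cells, stroma and epithelium. CXCR6 was detected by binding of a CXCL16-Fc fusion protein. The LP cells were released with collagenase, whereas the spleen was disrupted mechanically. The naive array carries labels that disagree, since 1 field names spleen and another names the LP of healthy mice, and the methods name the spleen of BALB/c mice. By the methods, all mice were 8 to 12 weeks old at use. The number of mice per sample is not given in the sources used here, and the intervals after transfer in the methods and in the supplementary material differ. The labels name the replicates as biological, but nothing states that they came from separate mice, so p-values measure the spread between these arrays, which may be technical.

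When the T cell receptor is engaged, inositol trisphosphate empties the calcium stores of the endoplasmic reticulum. STIM proteins sense the emptied store and open ORAI pores in the plasma membrane, and the calcium that enters activates calcineurin and NFAT. Entry needs a negative membrane potential, which the potassium channels Kv1.3 (Kcna3) and KCa3.1 (Kcnn4) maintain. Sodium entry through TRPM4 depolarises the cell, and TRPM7 carries magnesium and calcium and has a kinase domain.

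Against naive T cells, LP CD4+ T cells had higher signals of Orai1, the main pore subunit of store-operated entry in T cells, and of Trpm7, and lower signals of Orai2, a pore subunit that dampens the current when it joins ORAI1, and of Kcnn4. Orai1 was 2.83-fold and Trpm7 2.49-fold higher, and Orai2 was 9.44-fold and Kcnn4 2.24-fold lower, in LP cells. The Orai2 probe set used here ranked as brightest only through the naive array, and the other one was 1.63-fold lower and did not pass. Of the 10 genes, 2 were higher, 2 were lower and 6 did not pass the test (limma, adjusted p under 0.05 over all genes). Over all genes, 15.1% were called higher and 18.8% lower in LP cells, so the 10 channel genes were called about as often as genes at large. Of all genes called, 44.7% were higher in LP cells, a share that was 56.4% with quantile normalization and 66.4% with array medians. The median log2 difference, LP minus naive, was -0.22 over the 10 genes and -0.14 over all genes. The LP value is the mean of both subsets, and since 1 naive array was analysed, its spread was taken to equal that of the LP arrays.

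These calls rested on few arrays and on the choice of probe set. With any 1 of the 4 LP arrays left out, 0 of the 10 genes passed in limma. Orai1, Trpm7, Orai2 and Kcnn4 had an unadjusted p under 0.05 in each of these 4 fits, and Orai3 in 3 of them. In these fits 1769 and 1938 of all genes passed without 1 CXCR6+ array, and 0 without 1 CXCR6- array, where 7530 and 7545 had an unadjusted p under 0.05. The adjusted p of Orai1, Trpm7, Orai2 and Kcnn4 then lay between 0.0509 and 0.112, while their log2 differences stayed between 1.30 and 1.53 for the 2 higher genes and between -3.42 and -1.10 for the 2 lower ones. Beyond the channel genes, the LP and naive arrays differed in several ways that cannot be told apart from the groups. The summed signal of 8 measured B cell markers was 3.66 to 4.97 in LP cells and 61.5 in naive cells, with Cd79b at 0.54 to 0.75 and 21.96. In this list 6 were called lower in LP cells and 1, the dim Pax5 (0.67 to 1.22 and 0.025), higher. The summed signal of 10 fibroblast and smooth muscle markers was 97.9 to 156 in LP cells and 18.2 in naive cells. Here 6 were called higher in LP cells and 1, Sparc (1.8 to 2.4 and 7.5), lower. The summed signal of 12 myeloid markers was 304 to 405 and 421, although Cd14 (58.5 to 93.0 in LP cells, 1.95 in naive cells) and S100a9 (3.12 to 5.80 and 114) went opposite ways. The sums of 12 colonic epithelial markers were 48.1 to 108 and 107, and those of 8 mast cell markers 23.6 to 62.8 and 25.1. These sums also hid opposite directions. Car1, called lower in LP cells, made up most of the naive epithelial sum, at 85.2. Krt8 (9.36 to 29.6 in LP cells, 0.39 in naive cells) and Krt18 were called higher. Kit, called higher, made up most of the LP mast cell sums, at 18.9 to 57.6 against 4.69 in naive cells. Fcer1a, Tpsb2 and Mcpt4 were called lower. The sums of 9 T cell markers were 456 to 715 and 639, and no marker was at 0. Among the T cell markers, Cd3e was at 23.2 to 25.1 in LP cells and 86.1 in naive cells, and Cd4 at 22.9 to 39.2 and 56.0. Cd5 (64.7 to 107 and 39.1) and Cd2 (91.3 to 155 and 79.4) went the other way. Of these markers, 0 were called higher and 2 lower (Cd3d and Cd3e), and Cd4, Cd5 and Cd2 did not pass. Xist was at 181 to 215 in LP cells and 0.86 in naive cells, against 1.59 to 3.41 and 53.5 for Y-linked Eif2s3y. The DapX-3 control probe set was at 64.6 to 102 and 0.19, and DapX-5 and DapX-M were also higher on the LP arrays. The BioB control probe sets went the other way, at 5.91 to 7.72 and 21.4 (BioB-3), 6.2 to 7.8 and 17.2 (BioB-5) and 7.98 to 10.5 and 29.6 (BioB-M). Cxcr6 itself was at 184 and 225 in CXCR6+ cells, 58.1 and 25.3 in CXCR6- cells and 10.5 in naive cells. The part of these differences in the results on channel genes was not tested, and in bulk RNA fewer cells of a type and less RNA per cell cannot be told apart.

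**Figure D1:**
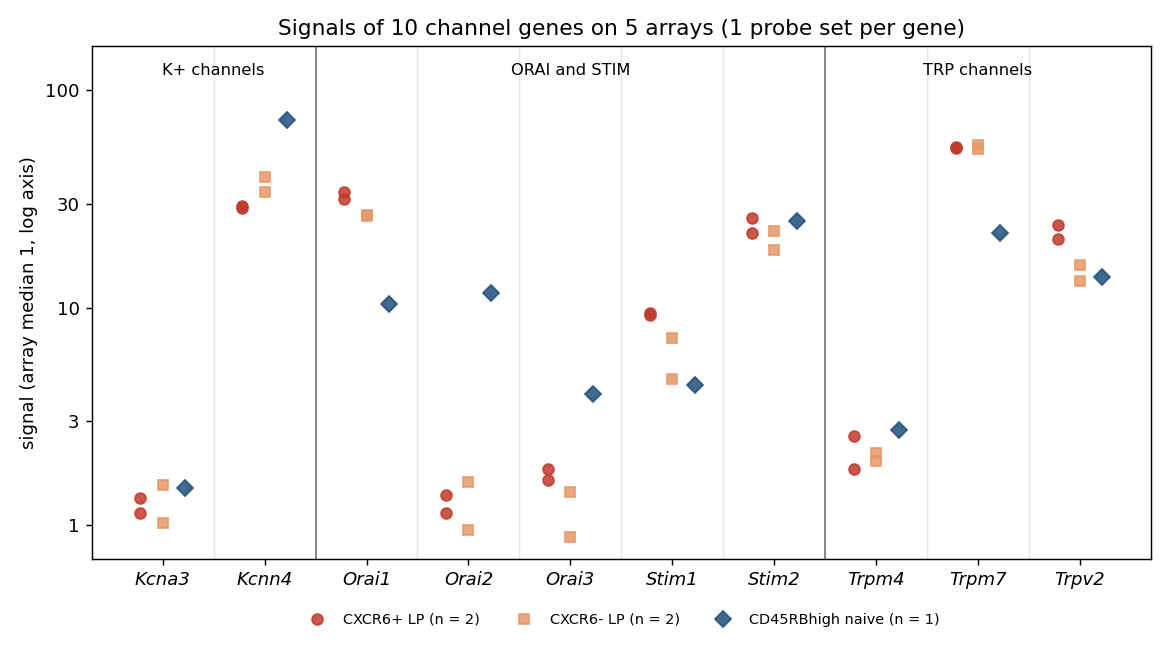
Signals of the 10 channel genes on each of the 5 arrays (log axis, each array scaled to a median of 1, 1 probe set per gene, 1 point per array). All 4 LP arrays lay above the naive array for Orai1, Stim1 and Trpm7, and below it for Kcnn4, Orai2, Orai3 and Trpm4.

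To show where these genes start, the 250 bases before the transcription start are printed for the 4 genes that passed the test (RefSeq, GRCm38.p6, 5′ to 3′ on the gene's strand). Capitals mark GGAAA or its reverse complement TTTCC, the core bound by NFAT factors, which overlaps the GGAA core of ETS factors, and the E-box CACGTG, which reads the same on both strands. The windows are chr5:123014824-123015073 on the plus strand for Orai1, chr2:126876262-126876511 on the minus strand for Trpm7, chr5:136170657-136170906 on the minus strand for Orai2 and chr7:24370013-24370262 on the plus strand for Kcnn4.
Orai1: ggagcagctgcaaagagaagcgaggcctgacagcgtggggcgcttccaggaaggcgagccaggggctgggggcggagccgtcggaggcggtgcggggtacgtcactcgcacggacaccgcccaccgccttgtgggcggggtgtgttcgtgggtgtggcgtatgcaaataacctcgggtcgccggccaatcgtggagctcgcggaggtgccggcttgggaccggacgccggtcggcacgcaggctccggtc
Trpm7: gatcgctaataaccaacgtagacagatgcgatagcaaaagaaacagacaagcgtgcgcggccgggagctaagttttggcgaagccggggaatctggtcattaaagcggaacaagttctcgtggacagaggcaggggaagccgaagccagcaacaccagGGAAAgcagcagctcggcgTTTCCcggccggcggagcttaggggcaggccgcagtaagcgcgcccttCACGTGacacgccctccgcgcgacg
Orai2: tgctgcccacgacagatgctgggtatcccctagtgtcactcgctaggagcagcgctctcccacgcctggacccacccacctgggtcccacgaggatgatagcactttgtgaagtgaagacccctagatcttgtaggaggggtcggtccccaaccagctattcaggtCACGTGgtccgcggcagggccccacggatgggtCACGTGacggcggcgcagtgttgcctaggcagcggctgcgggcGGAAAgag
Kcnn4: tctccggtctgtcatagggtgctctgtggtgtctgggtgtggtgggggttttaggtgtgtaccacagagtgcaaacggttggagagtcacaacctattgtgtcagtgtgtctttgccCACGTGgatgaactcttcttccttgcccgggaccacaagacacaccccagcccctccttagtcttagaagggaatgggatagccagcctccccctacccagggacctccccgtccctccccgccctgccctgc
The NFAT core occurred 2 times in the Trpm7 window, 1 time in that of Orai2 and in neither that of Orai1 nor that of Kcnn4. It occurred in 5 of the 11 windows of the 9 channel genes that had one, and in 55.6% of all 32851 windows. The E-box, which was looked for only after the sequences had been read, occurred 2 times in Orai2 and 1 time each in Trpm7 and Kcnn4, in no other window of the channel genes and in 6.02% of all windows. The Orai1 and Trpm7 windows held 30 and 26 CpG dinucleotides, that of Orai2 17 and that of Kcnn4 6, and the median over all windows was 6. These matches describe the letters and are no evidence of binding. No window of Trpm4 is shown.

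Among the pore subunits, Orai1 and Orai2 went opposite ways. Orai1 had signals of 34.0 and 31.6 in CXCR6+ cells and 26.7 and 26.4 in CXCR6- cells, against 10.4 in naive cells. All 4 LP arrays lay above the naive array, and both CXCR6+ arrays above both CXCR6- arrays. The log2 difference from naive cells was 1.501 (SE 0.24, limma adjusted p = 0.0235). The other Orai1 probe set gave a larger difference, with signals of 27.5 and 32.8 in CXCR6+ cells, 17.8 and 21.3 in CXCR6- cells and 1.22 in naive cells. In a fit of every probe set its log2 difference was 4.31 (SE 0.29, limma adjusted p = 0.0150), so both probe sets of this gene were higher in LP cells, but by very different sizes.

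Orai2 had signals of 1.14 and 1.37 in CXCR6+ cells and 1.58 and 0.95 in CXCR6- cells, against 11.7 in naive cells. The LP signals were close to the array median of 1, where replicate arrays differed more, and none came near the naive signal. The log2 difference from naive cells was -3.24 (SE 0.40, limma adjusted p = 0.0166). The other Orai2 probe set was at 3.14 and 3.54 in CXCR6+ cells, 2.40 and 2.50 in CXCR6- cells and 4.65 in naive cells. It too was lower on all 4 LP arrays, but its log2 difference of -0.70 (SE 0.26) did not pass in the fit of every probe set (limma adjusted p = 0.128). The probe sets' mean signals were close (3.34 for the first and 3.25 for this one). This one was the brighter on all 4 LP arrays, so the first ranked as brightest only through its naive signal of 11.7. Ranking by the mean of log2 values puts this one first, and then Orai2 does not pass (-0.70, limma adjusted p = 0.106).

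Orai3, another pore subunit, had signals of 1.81 and 1.62 in CXCR6+ cells and 1.42 and 0.88 in CXCR6- cells, against 4.01 in naive cells. All 4 LP arrays lay below the naive array, with the CXCR6- arrays lowest. Its log2 difference of -1.54 (SE 0.37) fell just short of the threshold (limma adjusted p = 0.0512), and with dim genes filtered out at the 40th percentile it passed (adjusted p = 0.00900).

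The calcium sensors differed less. Stim1, which opens ORAI pores on store depletion, had signals of 9.29 and 9.48 in CXCR6+ cells and 7.23 and 4.70 in CXCR6- cells, against 4.41 in naive cells. Every LP array was above the naive array, but 1 CXCR6- array only barely. The log2 difference was 0.74 (SE 0.35) and did not pass (limma adjusted p = 0.179). Its other probe set gave 0.70 (SE 0.26, adjusted p = 0.123), with signals of 8.08 and 7.47 in CXCR6+ cells, 6.11 and 5.98 in CXCR6- cells and 4.23 in naive cells. Stim2, the sensor of smaller falls in store calcium, was at 22.1 and 25.8 in CXCR6+ cells and 18.5 and 22.5 in CXCR6- cells, against 24.9 in naive cells, so the naive array lay within the LP range. The log2 difference was -0.18 (SE 0.28, limma adjusted p = 0.657), a sign that flipped with quantile normalization (0.45) and with array medians (0.37). The dimmer Stim2 probe set was at 1.61 and 1.06 in CXCR6+ cells, 0.76 and 1.09 in CXCR6- cells and 2.38 in naive cells (log2 difference -1.13, SE 0.42, adjusted p = 0.122).

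Of the potassium channels, the calcium-activated Kcnn4 carried the difference. It had signals of 29.3 and 28.6 in CXCR6+ cells and 34.0 and 40.03 in CXCR6- cells, against 73.0 in naive cells. The 3 groups did not overlap, and CXCR6+ cells were lowest. The log2 difference, LP minus naive, was -1.16 (SE 0.25, limma adjusted p = 0.0417). When the signals were scaled by array medians it was -0.61 and did not pass (adjusted p = 0.127). The other Kcnn4 probe set was at 5.29 and 5.87 in CXCR6+ cells, 5.99 and 5.03 in CXCR6- cells and 18.7 in naive cells, and was lower in LP cells by the fit of every probe set (log2 difference -1.76, SE 0.28, limma adjusted p = 0.0265). In that fit, the brighter probe set just missed the threshold (adjusted p = 0.0514). The voltage-gated Kcna3, the other potassium channel of T cells, was dim on every array, at 1.33 and 1.14 in CXCR6+ cells, 1.52 and 1.02 in CXCR6- cells and 1.48 in naive cells. Its naive signal lay within the LP range (log2 difference -0.25, SE 0.34, limma adjusted p = 0.601), and array medians turned the sign (0.29).

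Among the TRP channels, Trpm7 had signals of 54.2 and 55.1 in CXCR6+ cells and 55.8 and 53.8 in CXCR6- cells, against 22.003 in naive cells. The 4 LP arrays were nearly equal, and all were above the naive array. The log2 difference was 1.31 (SE 0.24, limma adjusted p = 0.0284). The 4 Trpm7 probe sets disagreed, however. A second one (of the _s_at type, which can match related transcripts) was at 13.9 and 19.3 in CXCR6+ cells, 17.2 and 13.9 in CXCR6- cells and 3.90 in naive cells (log2 difference 2.03, SE 0.34, adjusted p = 0.0289). The next was at 7.66 and 7.61 in CXCR6+ cells, 8.12 and 6.67 in CXCR6- cells and 7.67 in naive cells (log2 difference -0.03, SE 0.28, adjusted p = 0.939). The dimmest was at 1.49 and 1.17 in CXCR6+ cells, 1.08 and 0.28 in CXCR6- cells and 3.66 in naive cells (log2 difference -2.11, SE 0.85, adjusted p = 0.146). Thus the 2 brighter probe sets were called higher in LP cells, whereas the naive array lay within the LP range on the next one and above all LP arrays on the dimmest. With the mean of the 4 probe sets the log2 difference of Trpm7 was 0.30 and did not pass (limma adjusted p = 0.566).

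Trpm4 was at 1.81 and 2.58 in CXCR6+ cells and 1.98 and 2.15 in CXCR6- cells, against 2.73 in naive cells. The LP arrays were all below the naive array, 1 of them only slightly (log2 difference -0.37, SE 0.32, limma adjusted p = 0.415), and the sign turned under quantile normalization (0.25) and array medians (0.18). Trpv2, a cation channel also found in macrophages, was at 20.6 and 23.9 in CXCR6+ cells and 15.8 and 13.2 in CXCR6- cells, against 13.9 in naive cells. The naive array lay between the CXCR6- arrays and below the CXCR6+ ones (log2 difference 0.37, SE 0.27, limma adjusted p = 0.348). With quantile normalization, Trpv2 passed (log2 difference 1.08, adjusted p = 0.0483).

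Over the 10 genes, all 4 LP arrays lay above the naive array for 3 and below it for 4, and 3 overlapped. Over all genes, these shares were 35.0% above and 40.9% below. Of the 18 probe sets, 4 were higher, 2 were lower and 12 did not pass in the fit of every probe set, in which 13.1% of all probe sets were called higher and 16.5% lower in LP cells. Of the 6 genes with more than 1 probe set, only Orai1 had all of them called the same way.

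**Figure D2:**
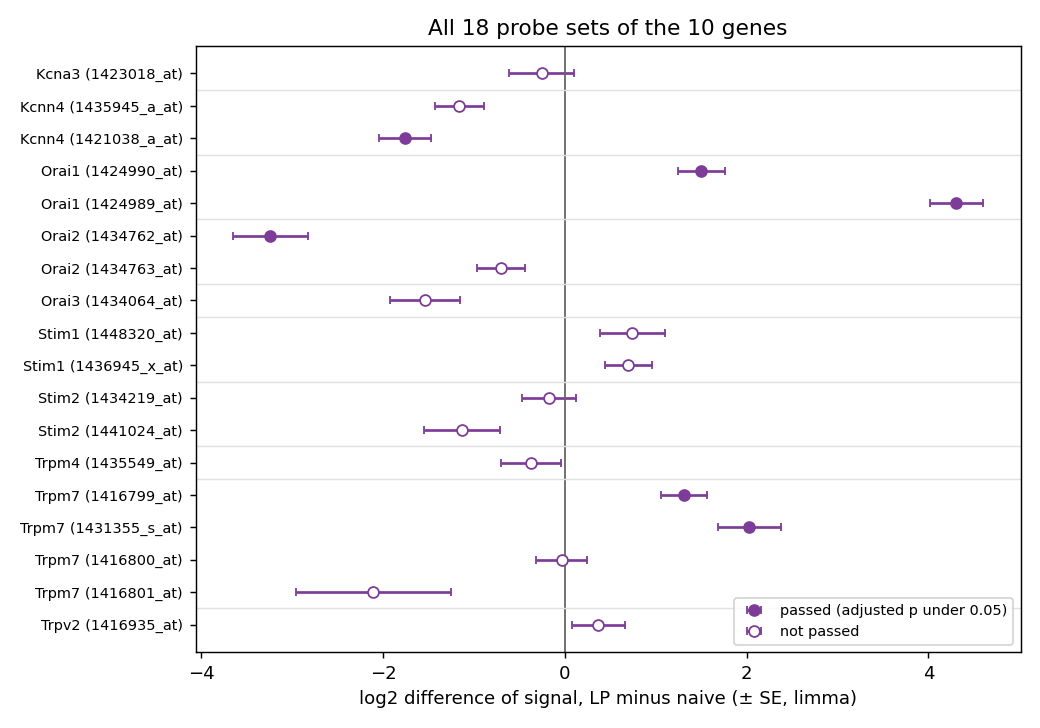
Log2 difference of signal, LP minus naive, with its SE from limma, for each of the 18 probe sets (1 row each, the brightest of each gene first, filled where the adjusted p was under 0.05). Both Orai1 probe sets lay above 0 (1.501 and 4.31), whereas the 4 Trpm7 probe sets ran between -2.11 and 2.03.

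To see whether both subsets shared these differences, each was set against the same naive array, so the comparisons share that array. In CXCR6+ cells, 2 genes were higher and 2 lower than in naive cells, against 13.2% higher and 15.3% lower over all genes. These were Orai1 (log2 difference 1.65, SE 0.26, limma adjusted p = 0.0274), Trpm7 (1.31, SE 0.26, 0.0383), Orai2 (-3.23, SE 0.44, 0.0227) and Kcnn4 (-1.33, SE 0.28, 0.0423). In CXCR6- cells, 2 genes were higher and 2 lower as well, against 12.8% and 16.7% over all genes. These were Orai1 (log2 difference 1.35, SE 0.26, limma adjusted p = 0.0367), Trpm7 (1.32, SE 0.26, 0.0374), Orai2 (-3.25, SE 0.44, 0.0221) and Orai3 (-1.84, SE 0.41, 0.0470). Kcnn4 did not pass in CXCR6- cells (-0.99, SE 0.28, adjusted p = 0.0739), nor did Orai3 in CXCR6+ cells (-1.23, SE 0.41, adjusted p = 0.103). Both passed there in some other settings, with limma adjusted p-values down to 0.00688 for Kcnn4 and 0.0232 for Orai3. So did Stim1 (down to 0.0237) and Trpv2 (down to 0.0473) in CXCR6+ cells. The difference between the subsets did not pass for Kcnn4 or for Orai3 (given next). In CXCR6+ cells, Orai2 missed the threshold with quantile normalization (-2.54, adjusted p = 0.0514) and with its other probe set (-0.48, 0.253), Kcnn4 with array medians (-0.77, 0.101) and in the fit of every probe set (adjusted p = 0.0525), and Trpm7 with the mean of its probe sets (0.48, 0.427). In CXCR6- cells, Orai3 missed it in 5 settings (mean of probe sets, quantile normalization, array medians, a floor of 1 and the fit of every probe set), with adjusted p-values of 0.0543 to 0.157, Orai2 with its other probe set (-0.92, 0.0799) and Trpm7 with the mean of its probe sets (0.13, 0.836).

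**Figure D3:**
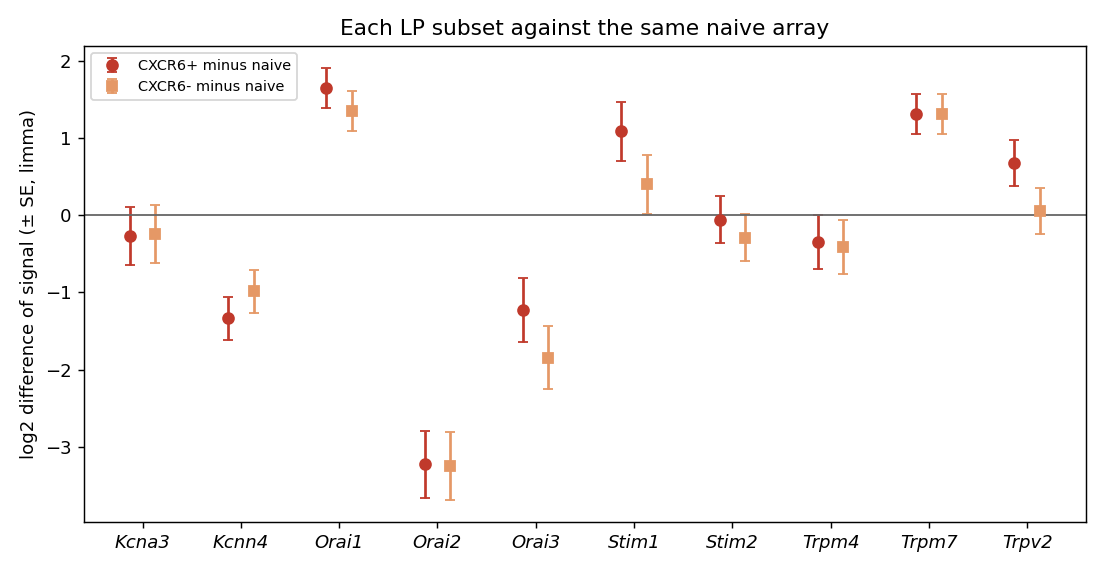
Log2 difference of signal between each LP subset and the same naive array, with its SE from limma (circles, CXCR6+ minus naive; squares, CXCR6- minus naive; n = 2 arrays per subset and 1 naive array). The subsets lay close for Orai2 (-3.23 and -3.25) and Trpm7 (1.31 and 1.32) and farthest apart for Stim1 (1.09 and 0.40).

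Between CXCR6+ and CXCR6- cells, 0 of the 10 genes passed, and neither did any other gene (0.0% of 18193 by limma). At an unadjusted p under 0.05 there were 0 channel genes and 1191 genes in all in the main fit. Stim1 and Trpv2 fell under it with the 40th percentile filter, a pseudocount of 1 or a robust variance trend, and Orai1 and Trpv2 with a floor of 1. The CXCR6+ arrays lay above the CXCR6- arrays for 4 genes (Orai1, Orai3, Stim1 and Trpv2) and below them for 1 (Kcnn4), while 5 overlapped. The arrays of the subsets do not overlap for 39.5% of all genes, so 5 of 10 is near the background. The largest log2 difference, CXCR6+ minus CXCR6-, was that of Stim1 (0.69, SE 0.31, 95% interval -0.21 to 1.58, limma adjusted p = 0.774), followed by Trpv2 (0.62, SE 0.24, -0.08 to 1.32, 0.761) and Orai3 (0.61, SE 0.34, -0.35 to 1.58, 0.797). For Kcnn4 it was -0.35 (SE 0.23, 95% interval -1.002 to 0.31, limma adjusted p = 0.806) and for Orai1 0.30 (SE 0.21, -0.31 to 0.92, 0.812). The 95% interval of Orai2 ran between -1.002 and 1.05 and that of Trpm7 between -0.61 and 0.60, so differences of that size could not be detected with 2 arrays per subset.

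The genes around these channels were examined through 6 lists, with 98 genes measured. Each is shown by its brightest probe set only. Many had others, such as Vdac1 with 5 in all and Atp2b1, P2rx7, Tpcn1 and Cabin1 with 3 each, which are not given here and may disagree. In LP cells 12 were higher, 18 were lower and 68 did not pass, close to the shares over all genes (15.1% higher and 18.8% lower). The counts of each list below stand beside these same shares. The median log2 difference was -0.14 over these genes and over all genes alike. Between the subsets 0 of the 98 passed. At an unadjusted p under 0.05 there were 11 of the 98, against 1191 of all 18193 genes (limma).

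Of 12 listed regulators of store-operated entry 10 were measured, of which 2 were higher, 2 were lower and 6 did not pass (median log2 difference -0.36). Saraf, which shuts off store-operated entry, was at 132 and 142 in CXCR6+ cells and 145 and 143 in CXCR6- cells, against 64.6 in naive cells. All LP arrays were well above the naive one (log2 difference 1.12, SE 0.24, limma adjusted p = 0.0393). Stimate, which helps STIM1 reach ORAI1, was at 3.32 and 6.497 in CXCR6+ cells and 2.87 and 3.58 in CXCR6- cells, against 0.88 in naive cells (log2 difference 2.14, SE 0.48, adjusted p = 0.0438). Pdia3, an oxidoreductase of the endoplasmic reticulum, was lower by a log2 difference of -1.87 (SE 0.45, adjusted p = 0.0494), and the lysosomal channel gene Mcoln1 one of -1.20 (SE 0.29, adjusted p = 0.0491). All of these adjusted p-values lay within 0.0393 to 0.0494.

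Of 21 listed genes of inositol trisphosphate signalling, calcium stores and pumps, 18 were measured, of which 1 was higher, 5 were lower and 12 did not pass (median log2 difference -0.73). The higher one was Atp2b1, which encodes a plasma membrane pump that exports calcium. Its signals were 92.2 and 90.3 in CXCR6+ cells and 54.4 and 49.3 in CXCR6- cells, against 9.86 in naive cells. The 3 groups did not overlap, and the log2 difference, LP minus naive, was 2.80 (SE 0.24, limma adjusted p = 0.0123). Mcu, the pore of the mitochondrial calcium uniporter, was lower in LP cells, at 5.73 and 3.41 in CXCR6+ cells and 3.99 and 3.49 in CXCR6- cells, against 20.0 in naive cells (log2 difference -2.30, SE 0.40, adjusted p = 0.0265). Itpkb, a kinase that phosphorylates inositol trisphosphate, was also lower (log2 difference -1.75, SE 0.26, adjusted p = 0.0207), as was Vdac1, the channel of the outer mitochondrial membrane (-1.71, SE 0.33, adjusted p = 0.0327).

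Of 19 listed genes of calmodulin, calcineurin and NFAT, 16 were measured, of which 2 were higher, 4 were lower and 10 did not pass (median log2 difference -0.59). Dyrk1a, a kinase that sends NFAT out of the nucleus, was at 2.73 and 3.65 in CXCR6+ cells and 2.75 and 2.18 in CXCR6- cells, against 74.96 in naive cells (log2 difference -4.75, SE 0.32, limma adjusted p = 0.0119). No LP array came near the naive one on this probe set, which is 1 of 3 of Dyrk1a. Akap5, a scaffold that binds calcineurin, was higher (1.96, SE 0.27, adjusted p = 0.0190), and Cabin1, a calcineurin inhibitor, and Homer3, which competes with calcineurin for NFAT, were lower (-1.77, SE 0.32, adjusted p = 0.0287, and -1.75, SE 0.33, adjusted p = 0.0319). Homer3 was dim, at 1.05 and 0.70 in CXCR6+ cells, 0.93 and 0.87 in CXCR6- cells and 2.96 in naive cells. Its mean signal over the 5 arrays was above 1 only through the naive array. The NFAT genes Nfatc1 (-1.001, SE 0.30, adjusted p = 0.0781) and Nfatc2 (-0.88, SE 0.25, adjusted p = 0.0697) did not pass.

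Of the remaining lists, 8 of 9 partners of the potassium channels were measured. Phpt1, a histidine phosphatase that inhibits KCa3.1, was lower in LP cells, at 2.17 and 4.51 in CXCR6+ cells and 2.51 and 2.69 in CXCR6- cells, against 32.5 in naive cells (log2 difference -3.51, SE 0.50, limma adjusted p = 0.0198), and the other 7 did not pass. Thus Kcnn4 and the gene of its inhibitor were both lower. All 16 listed other potassium channels were measured, of which 3 were higher and 13 did not pass. Most were near or under the array median, and the only one of the 3 with a mean signal over 1 was Kcnk7 (log2 difference 1.46, SE 0.28, adjusted p = 0.0320). Of 35 other cation and volume channels 30 were measured, of which 4 were higher, 6 were lower and 20 did not pass. Lrrc8a, the essential subunit of the volume-regulated anion channel, was at 6.48 and 4.66 in CXCR6+ cells and 5.72 and 6.46 in CXCR6- cells, against 60.3 in naive cells (log2 difference -3.38, SE 0.31, limma adjusted p = 0.0130). Tpcn1, an endolysosomal cation channel, was lower (-3.33, SE 0.27, adjusted p = 0.0121), as was P2rx7, an ATP-gated cation channel (-2.92, SE 0.38, adjusted p = 0.0178), and also Tpcn2 (-1.65, SE 0.30, adjusted p = 0.0287).

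**Figure D4:**
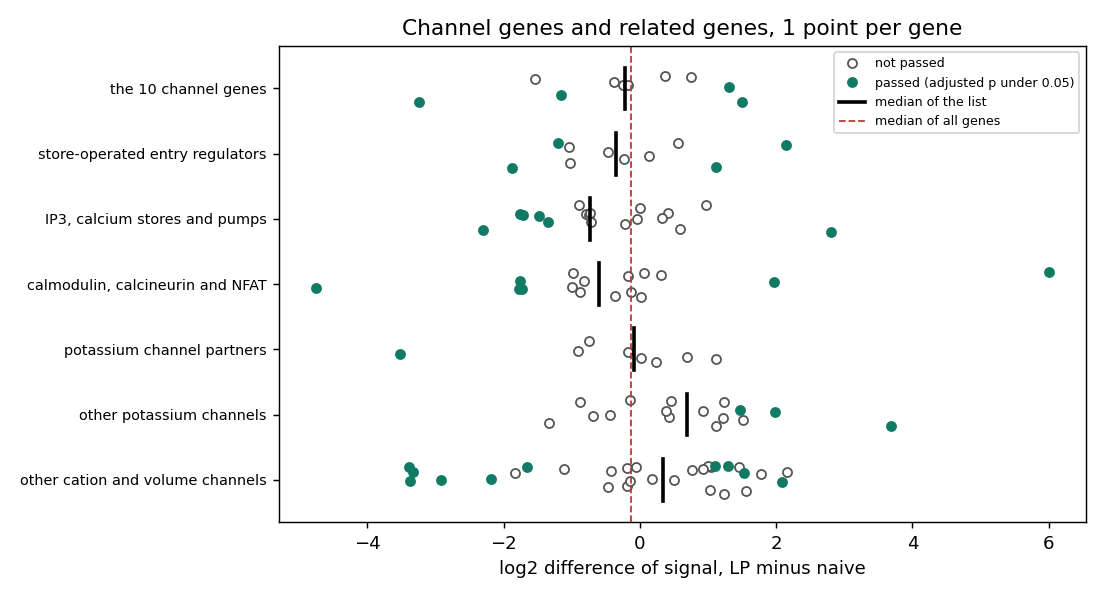
Log2 difference of signal, LP minus naive, of the 10 channel genes and of 98 related genes in 6 lists (1 point per gene, filled where the limma adjusted p was under 0.05; black bars are list medians, the dashed line is the median of all genes, -0.14). Points lay on both sides of 0 in every list, with Dyrk1a lowest at -4.75 and the dim Homer2 highest at 6.001.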

How the data were processed

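RNA of sorted CD4+ T cells was amplified and hybridised to Affymetrix mouse GeneChip arrays. The deposited intensity values are linear signals that the authors scaled to a median of 1 per array, with GeneSpring named in the methods and RMA in the submitters' notes. Their background correction is not given in the sources used here, and the RNeasy kit named differs between methods and labels.

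Of 45101 probe sets, 34945 carried 1 gene symbol, 932 several and 9160 none. A further 64 controls were left out, and 34741 probe sets matched RefSeq by Entrez ID. The brightest probe set represented each of 18193 genes. Signals were log2 transformed (2 signals of 0 were set to 0.001) without a filter on low values. Groups were compared by limma 3.58.1 under R 4.3.3, with two-sided moderated tests, p-values adjusted by Benjamini-Hochberg across all genes and a threshold of 0.05. The spread had 2 residual and 1.68 prior degrees of freedom, which only the LP arrays supply. The number of arrays limits the precision. The fit was tested on simulated data. A second fit took every probe set. Figures and sequence windows were made in Python 3.11.15 with matplotlib 3.10.9.

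The named genes were all 10 channel genes with every probe set and, of each related list, up to 4 genes with the largest differences among those that passed with a mean signal of at least 1 (1 gene in each of the lists of potassium channels and of their partners), as well as marker genes. Nfatc1, Nfatc2 and Homer2 were named after their values were seen. The channel genes and lists were chosen with earlier results of these data known.

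Alternatives averaged the probe sets of a gene, dropped the _s_at, _x_at and _a_at types where a gene had another probe set (Kcnn4, with none, kept its own), filtered signals at the 40th percentile, used quantile normalization or array medians, added a pseudocount of 1, set a floor of 1, let the variance follow a robust trend, left out each LP array, used the LP arrays alone, the methods' test or a replicate block. Ranking probe sets by the mean of log2 values and a block over all 5 arrays were added after the data were seen. No source used here states whether replicate numbers pair the arrays, and the main fit had no block.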

Additional observations from a re-analysis of the deposited data

How the results depend on the processing

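The 10 channel genes gave 4 calls in LP cells against naive cells, and 3 to 5 under each of the 10 settings that changed the probe set, filter, scaling or variance model. The counts against naive cells changed by over 1.5 times when 1 array was left out (0 to 0 for LP, CXCR6+ and CXCR6- cells, where fewer arrays leave fewer degrees of freedom) and with a fixed replicate block over the 5 arrays (1, Orai2, for LP cells, and 0 for each subset, with 5 of the CXCR6+ and 4 of the CXCR6- differences at an unadjusted p under 0.05). Whether the replicate numbers mark a pairing is not stated in the sources used here. The deviations of same-numbered arrays had a correlation of 0.02 over all genes, many of them dim, which does not settle it. The epithelial marker sums were 48.1 and 49.2 on the LP arrays numbered 1 and 89.8 and 107.8 on those numbered 2. The T cell sums did not go by number (626 and 541, then 715 and 456). A random replicate block could not be fitted to 5 arrays. Between the subsets, the replicate block gave 0 calls, and the methods' test found 1 channel gene (Orai1) at its unadjusted threshold, of 1283 genes, and 0 after Benjamini-Hochberg adjustment, against 1 gene in all. Scaling by array medians moved the median of all genes of LP minus naive to 0.41 on the log2 scale, against -0.14 as deposited and -0.0013 with quantile normalization.

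No called difference changed sign in any setting run. Those of uncalled genes that did were as follows, and the cause was not tested. For LP minus naive, quantile normalization gave 0.45 for Stim2 and 0.25 for Trpm4, and array medians gave 0.29 for Kcna3, 0.37 for Stim2 and 0.18 for Trpm4. For CXCR6+ minus naive, quantile normalization gave 0.0022 for Kcna3, 0.46 for Stim2 and 0.27 for Trpm4, array medians gave 0.30, 0.50 and 0.22 for these genes, and leaving out 1 array gave -0.17 to 0.0518 for Stim2. For CXCR6- minus naive, quantile normalization gave 0.44 for Stim2 and 0.23 for Trpm4, array medians gave 0.29 for Kcna3, 0.25 for Stim2 and 0.13 for Trpm4, and leaving out 1 array gave -0.0660 to 0.19 for Trpv2 and -0.53 to 0.0423 for Kcna3. For CXCR6+ minus CXCR6-, the mean of probe sets gave 0.35 for Trpm7, quantile normalization 0.0427 for Kcna3, array medians 0.0013 for Kcna3 and 0.0199 for Trpm7, and a floor of 1 gave -0.0123 for Orai2. Leaving out 1 array there gave -0.0299 to 0.0226 for Trpm7, -0.31 to 0.26 for Kcna3, -0.34 to 0.39 for Orai2 and -0.19 to 0.32 for Trpm4. Dim signals limit Orai2, Orai3, Kcna3 and Trpm4, since the median difference between replicate arrays was 0.34 and 0.32 on the log2 scale at signals of 1 to 4, against 0.24 and 0.16 at 16 and over (CXCR6+ and CXCR6- cells).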
